A study of Homo sapiens
Mus musculus with 5 samples.

Results

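HMGA1 and HMGA2, which encode small chromatin proteins of the high mobility group A family, were examined together with the RNA-binding protein genes IGF2BP1, IGF2BP2, IGF2BP3, LIN28B, RBMS1 and RBMS3. The genes were chosen by name, with the human brain and lung values of these libraries already known, and were found by exact symbol. Of the 8 symbols, 7 were found among the 25524 genes of the human table, and human LIN28B was not analysed here. All 8 same-symbol genes were found among the 24628 genes of the mouse table.

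The tumors were grown from H2030-BrM3, a human lung adenocarcinoma line derived for its growth in the brain, in athymic nu/nu mice, whose missing thymus leaves them without T cells but with other immune cells. RNA sequencing gave 3 libraries of brain tumors and 2 of orthotopic lung tumors, which were seeded through the trachea per the labels. Every tumor comes from the same single line. The sample titles, BrMet for brain and LuOt for lung tumors, set the groups apart by kind of tumor and by site of growth. Effects of site, kind of tumor and seeding cannot be told apart here. How the brain tumors were seeded, how old the mice were and whether tissue was pooled is not given in the sources used here. Human reads were taken to come from cancer cells and mouse reads from host tissue.

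HMGA proteins bind AT-rich DNA through AT-hooks and bend it, which changes how transcription factors assemble. HMGA2, LIN28B, IGF2BP1 and IGF2BP3 are oncofetal, that is, made in the embryo, silent in most adult tissues and made again in many carcinomas. LIN28B blocks the maturation of let-7 microRNAs, and let-7 in turn represses HMGA2, IGF2BP1 and LIN28B through sites in their messages. IGF2BP proteins bind and stabilise messages, many of them marked by N6-methyladenosine (m6A), and RBMS proteins bind single-stranded nucleic acid and the ends of messages.

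Values are RPKM, reads per kilobase of gene length scaled to the depth of the library. The reads and gene lengths behind them were recovered from the values themselves. Human read totals behind the RPKM were 2500199 to 8638525 per library, and mouse totals were 237252 to 8822132, lowest in lung tumor 1. The human share of reads was 75.7%, 56.7% and 22.1% in brain tumors 1, 2 and 3, against 96.6% and 41.5% in lung tumors 1 and 2. In lung tumor 1 the median deviation of long human genes, of about 1936 bases or more, from their means over libraries was -0.54 on the log2 scale, against 0.10 to 0.17 in the other libraries. For long mouse genes, of 3013 bases or more, it was -0.83 in lung tumor 1, against 0.12 to 0.23 in the other libraries. The epithelial marker KRT8 was at 428 to 1343 RPKM in the brain tumors, against 906 and 831 in the lung tumors, but the lung lineage marker NKX2-1 was at or below 0.594 in every library. Of the same list, KRT18 was at 210 to 604 RPKM over the libraries, MUC1 at 260 to 918 and VIM at 572 to 1009. EPCAM was at 29.7 to 144, CDH1 at 4.39 to 54.2 and KRT7 at 5.36 or less. Of 4 human blood markers 2, PTPRC and CD68, were analysed and summed to 0.674 RPKM or less, while HBB and HBA1 were not analysed. Human SNAP25, RBFOX3 and GFAP were at 3.12 or less, and the fourth neural marker, MBP, stood at 120 to 178 RPKM in the brain tumors, against 78.4 and 234 in the lung tumors. In the host, astrocyte markers summed to 11764 to 13389 RPKM in the brain tumors, against 52.2 and 173 in the lung tumors. Alveolar type 2 markers summed to 4.16 to 11.6 RPKM in the brain tumors, against 211 in lung tumor 1 and 18731 in lung tumor 2. The labels do not say that each tumor came from its own mouse, so p-values measure the spread between these samples, which may be technical.

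The first comparison set the cancer cells of brain tumors against those of lung tumors. HMGA2 and RBMS3 were each more than 6 times higher in the brain tumors, and both lung tumors had nearly the same low value. IGF2BP1, IGF2BP2 and IGF2BP3 had means 1.64 to 1.90 times higher in the brain tumors, a difference that was smaller without lung tumor 1. HMGA1, the more abundant relative of HMGA2, and RBMS1, the relative of RBMS3, had ratios of 0.880 and 1.04. Because the genes were picked on this contrast, the human values are a description and no test is given for them.

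HMGA2 (ENSG00000149948.13, protein-coding, chromosome 12 from 65824460 to 65966291 on the GRCh38.p14 assembly) had 19.003, 20.2 and 31.7 RPKM in the brain tumors, against 3.42 and 3.58 RPKM in the lung tumors. Every brain tumor lay above both lung tumors, and the lowest brain tumor was far above the higher lung tumor. These values rest on 251, 203 and 121 reads in the brain tumors, against 35 and 21 reads in the lung tumors. The exact Poisson 95% interval of the lowest brain tumor was 16.7 to 21.5 RPKM, against 2.21 to 5.47 for the lung tumor with the wider interval, counting error only. The means were 23.6 ± 6.98 RPKM in the brain tumors (SD, n = 3) and 3.50 ± 0.108 in the lung tumors (SD, n = 2). The log2 fold change was 2.42 (SE 0.41), which placed HMGA2 at rank 32 of 14423 tested human genes. It was 2.39 without lung tumor 1 and 2.44 without lung tumor 2.

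RBMS3 (ENSG00000144642.20, protein-coding, chromosome 3 from 29281071 to 30010395) binds single-stranded nucleic acid and AU-rich message ends. It had 17.3, 29.4 and 25.4 RPKM in the brain tumors, against 3.61 and 3.95 RPKM in the lung tumors. The groups did not overlap, and the reads numbered 167, 216 and 71 in the brain tumors, against 27 and 17 in the lung tumors. The log2 fold change was 2.36 (SE 0.41), rank 39 of the tested genes. Antisense genes named after RBMS3 were at 0.640 RPKM or less in every library, with library strand not given in the sources used here.

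HMGA1 (ENSG00000137309.19, chromosome 6 from 34236873 to 34246231) carries AT-hooks as HMGA2 does but stays on in many dividing adult cells. Its level was 285, 267 and 233 RPKM in the brain tumors, against 344 and 251 in the lung tumors. The brain range lay partly inside the lung range, and the log2 fold change was -0.17 (SE 0.32), turning to 0.06 without lung tumor 1. HMGA1 has processed pseudogenes of near-identical sequence, so its reads are uncertain to that extent. RBMS1 (ENSG00000153250.17, chromosome 2 from 160272151 to 160493807) had 25.6, 31.5 and 49.0 RPKM in the brain tumors, against 31.4 and 36.6 in the lung tumors. Both lung tumors lay between the lowest and the highest brain tumor, and the log2 fold change was 0.01 (SE 0.39).

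**Figure D1:**
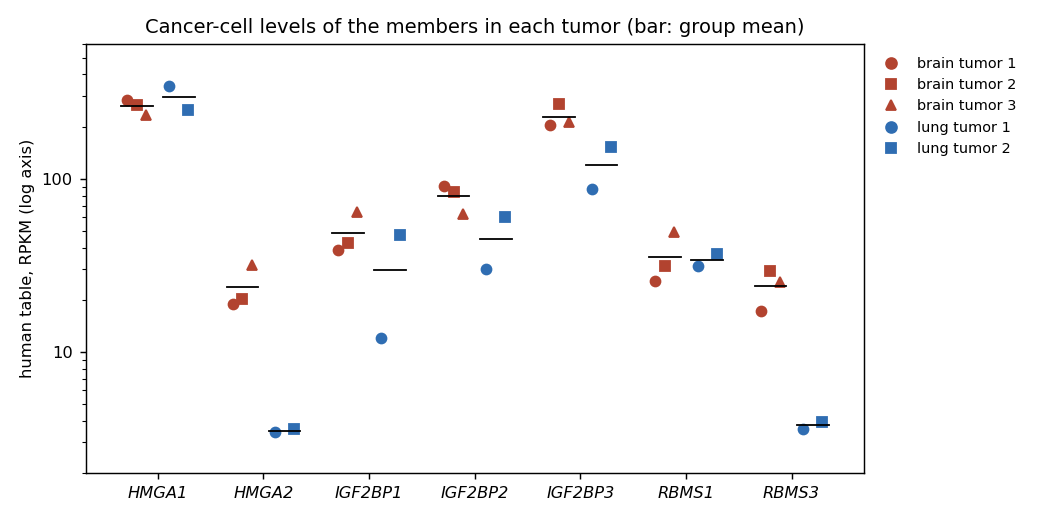
RPKM of the 7 human genes (log axis) in each of 3 brain tumors (red) and 2 lung tumors (blue), with a bar at the group mean. HMGA2 and RBMS3 separate widely, with lung values of 3.42 to 3.95 RPKM, while HMGA1 and RBMS1 overlap between the groups.

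The same contrast can be read inside each library, where scaling cancels. The ratio of HMGA1 to HMGA2 was 15.0, 13.2 and 7.35 in the brain tumors, against 100.4 and 70.1 in the lung tumors. The ratio of RBMS1 to RBMS3 was 1.48, 1.07 and 1.93 in the brain tumors, against 8.70 and 9.27 in the lung tumors. For both pairs every brain tumor lay below both lung tumors. The genes were picked on this contrast, so the ratios are a description as well. A ratio shows that the pair moved unequally, not which gene moved.

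The IGF2BP genes encode message-binding proteins with RRM and KH domains that are known for raising the levels of growth-related messages. IGF2BP3 (ENSG00000136231.13, chromosome 7 from 23310209 to 23470491) was the most abundant, at 203, 269 and 213 RPKM in the brain tumors, against 86.8 and 153 in the lung tumors. IGF2BP2 (ENSG00000073792.15, chromosome 3 from 185643130 to 185825042) had 91.0, 84.1 and 62.9 RPKM in the brain tumors, against 30.3 and 59.9 in the lung tumors. For these genes every brain tumor lay above both lung tumors, although brain tumor 3 exceeded lung tumor 2 in IGF2BP2 by less than counting error, with Poisson intervals of 49.8 to 78.2 RPKM in brain tumor 3 and 49.5 to 71.8 in lung tumor 2. IGF2BP1 (ENSG00000159217.9, chromosome 17 from 48996558 to 49056145), the member most restricted to the embryo, had 38.8, 42.4 and 64.1 RPKM in the brain tumors, against 11.993 and 47.2 in the lung tumors. Its groups overlapped, since lung tumor 2 exceeded brain tumors 1 and 2.

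The log2 fold changes of IGF2BP1, IGF2BP2 and IGF2BP3 were 0.95 (SE 0.56), 0.86 (SE 0.39) and 0.97 (SE 0.36). Without lung tumor 1 they were 0.00, 0.38 and 0.56, and without lung tumor 2 they were 1.89, 1.34 and 1.38. Lung tumor 1 was the lower of the lung tumors in all 3 genes, at 0.254, 0.506 and 0.566 times the RPKM of lung tumor 2. It is also the library in which long genes were low. With a length trend removed from each library the fold changes were 0.92, 0.90 and 0.94, but the lengths behind the RPKM, 761, 509 and 598 bases, are short for these messages, so the part of message length was not tested.

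Within the family the share of each message overlapped between the sites. IGF2BP3 took 61.6%, 68.2% and 61.2% of the IGF2BP reads in the brain tumors, against 67.9% and 58.0% in the lung tumors. The widest Wilson 95% interval of these shares was 57.0% to 65.3%, in brain tumor 3. IGF2BP1 gave 13.7% to 23.4% in the brain tumors, against 11.9% and 22.7% in the lung tumors. All IGF2BP messages together gave 197, 236 and 208 RPM in the brain tumors, against 76.5 and 158 RPM in the lung tumors, where RPM is scaled like RPKM but not divided by length.

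**Figure D2:**
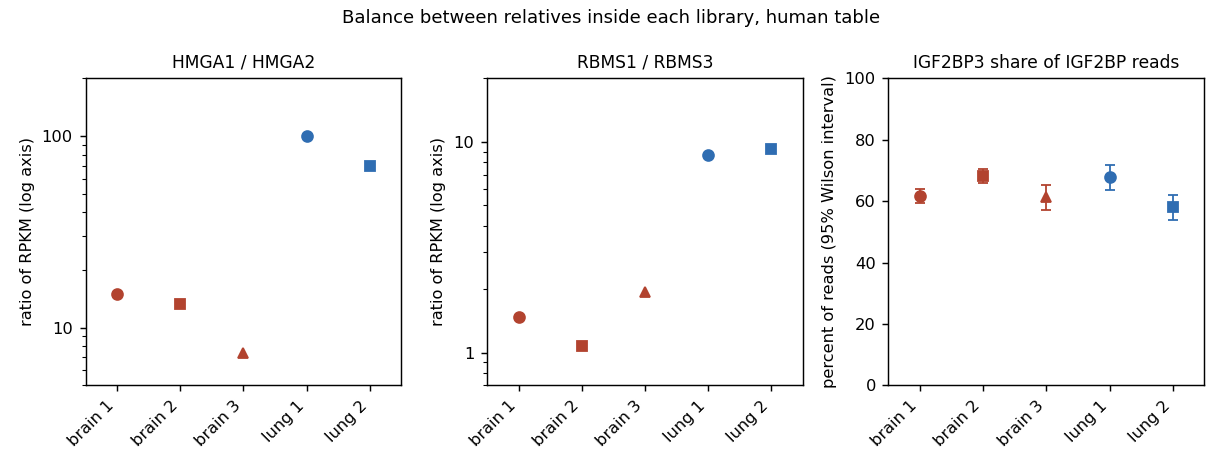
Ratios of RPKM of HMGA1 to HMGA2 and of RBMS1 to RBMS3 (log axes), and the IGF2BP3 percent of all IGF2BP reads with 95% Wilson intervals, in each library (brain tumors red, lung tumors blue). The HMGA ratio is 7.35 to 15.0 in brain tumors and 70.1 to 100.4 in lung tumors, whereas the IGF2BP3 share overlaps between the groups.

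Over the 7 human genes the median log2 fold change was 0.95, beside 0.09 over all 14423 tested human genes. In 4 of 7 every brain tumor was above both lung tumors and in 0 of 7 below, where 17.4% and 12.3% of all tested genes were so. Since this contrast chose the genes, nothing is read from these counts. The median of all genes was -0.03 with median-ratio scaling. HMGA2, RBMS3 and the 3 IGF2BP genes were positive and HMGA1 negative under every scaling run, whereas RBMS1 turned to -0.13 with median-ratio scaling, -0.09 with quantile normalization, -0.10 with the length trend removed and -0.03 with voom.

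**Figure D3:**
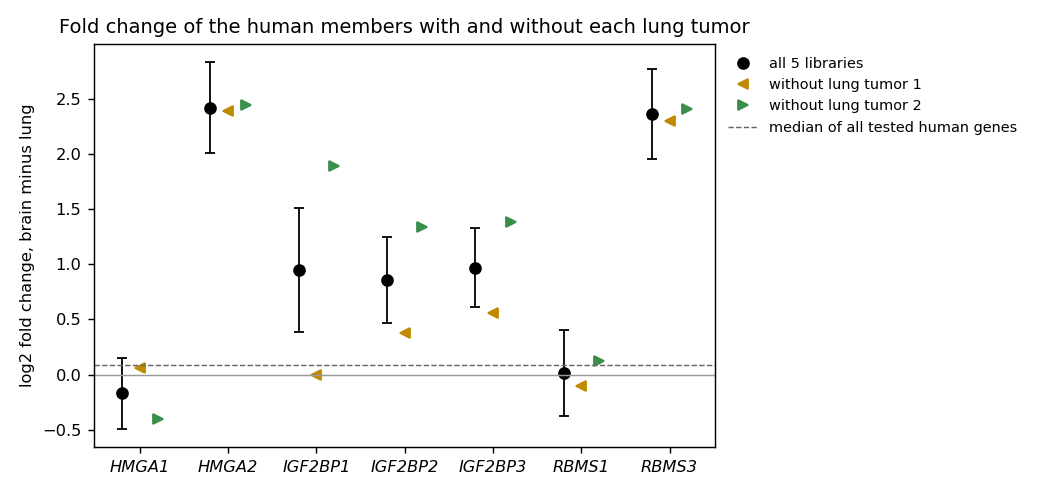
Log2 fold change, brain minus lung, of the 7 human genes with all 5 libraries (black, with SE), without lung tumor 1 (yellow) and without lung tumor 2 (green), beside the median of all tested human genes (dashed, 0.09). HMGA2 and RBMS3 stay between 2.30 and 2.44, while IGF2BP1 runs from 0.00 to 1.89.

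The brain tumors also differed among themselves. Brain tumor 3, with the lowest human share, had the highest HMGA2, IGF2BP1 and RBMS1 and the lowest HMGA1 and IGF2BP2 of the brain tumors. The highest brain tumor exceeded the lowest by 1.22 times in HMGA1 and by 1.91 times in RBMS1, the extremes of the 7 genes. With the human share as a covariate the log2 fold changes were 2.29 for HMGA2, 2.27 for RBMS3 and 0.52 for IGF2BP1. They were 0.79 for IGF2BP2, 0.84 for IGF2BP3 and -0.05 for HMGA1, and RBMS1 turned from 0.01 to -0.17.

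By RPKM the order in the brain tumors was HMGA1, IGF2BP3, IGF2BP2, IGF2BP1, RBMS1, RBMS3 and HMGA2, with means of 262, 229, 79.3, 48.4, 35.4, 24.0 and 23.6. Only IGF2BP3 and IGF2BP2 had ranges that did not meet among neighbours in that order. In the lung tumors the order was HMGA1, IGF2BP3, IGF2BP2, RBMS1, IGF2BP1, RBMS3 and HMGA2, with means of 297, 120, 45.1, 34.0, 29.6, 3.78 and 3.50. There RBMS1 did not separate from IGF2BP2 or IGF2BP1. These levels depend on the lengths the authors used, which were 1867.5 bases for HMGA1 and 1529 for HMGA2 but 509 to 761 for the IGF2BP genes.

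The genes of most similar profile were sought among 10402 human genes with a mean of at least 5 RPKM, by root mean square distance of centred log2(RPKM + 1) over the 5 libraries. For HMGA2 they were SERPINI1, a neuronal serpin, and RBMS3 itself, at distances of 0.203 and 0.277, against a spread of HMGA2 about its own mean of 1.21. For RBMS3 they were AKAP6 and SSPO, at 0.161 and 0.188. For IGF2BP1 they were EBLN3 and SPTBN1, for IGF2BP2 ZNF184 and ZNF740, for IGF2BP3 CEP120 and PRRC2B, for HMGA1 ZMAT2 and AURKB, and for RBMS1 TMEM263 and FBXL12. The distances describe 5 libraries and carry no test. HMGA2 and RBMS3 were both picked with the brain and lung values known, so nothing is read from their closeness.

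Genes that work with the members were then counted in 7 lists. In limma on log2(RPKM + 1) 0 genes of these lists passed at an adjusted p under 0.05, where 1 of 14423 tested human genes, or 0.00693%, passed. At an unadjusted p under 0.05 the 7 lists held 0 to 2 genes each, against 10.5% of all tested genes, and voom on the recovered reads passed 0. For comparison with the list medians below, the median log2 fold change over all tested human genes was 0.09. It was -0.01 without lung tumor 1 and 0.25 without lung tumor 2. With the replicate number as a block 1 let-7 target passed, higher in the brain tumors, among 114 of all tested genes. With a length trend removed from each library, the list medians were 0.40 for let-7 processing, 0.23 for let-7 targets and -0.04 for IGF2BP clients. They were 0.37 for m6A machinery, 0.46 for other high mobility group genes, 0.60 for other RNA binders and 0.46 for the IGF axis. Over all tested genes the median was then -0.00. Long genes were low in lung tumor 1, and the part of that shift in the list medians was not tested.

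Of 15 genes of let-7 processing and LIN28 partners 13 were tested, with a median log2 fold change of 0.54. That median was -0.13 without lung tumor 1 and 1.15 without lung tumor 2. LIN28A, the relative of LIN28B, was listed at 0 in all brain tumors and stood at 0.0401 and 0.0698 RPKM in the lung tumors. The host transcript of let-7b, MIRLET7BHG, had 0.885, 1.36 and 2.55 RPKM in the brain tumors, against 4.29 and 3.32 in the lung tumors. Its groups did not overlap, and 12.3% of all tested human genes likewise had every brain tumor below both lung tumors. It did not pass the test (log2 fold change -0.93, SE 0.46, limma adjusted p = 0.491). Mature let-7 was not measured. ZCCHC11, also called TUT4, which adds uridines to let-7 precursors held by LIN28, averaged 69.1 ± 5.08 RPKM in the brain tumors (SD, n = 3) and 36.7 ± 33.5 in the lung tumors (SD, n = 2; limma adjusted p = 0.481). DROSHA, which cuts primary microRNA transcripts, had 236, 245 and 188 RPKM in the brain tumors, against 92.6 and 238 in the lung tumors. AGO2, the slicer of silencing complexes, had 670, 632 and 567 RPKM in the brain tumors, against 176 and 878 in the lung tumors. For both genes lung tumor 1 was below all brain tumors while lung tumor 2 was not.

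Of 20 other reported let-7 targets 18 were tested, with a median log2 fold change of 0.45, which was 0.05 without lung tumor 1 and 0.81 without lung tumor 2. In 6 of the 18 every brain tumor was above both lung tumors and in 1 below, beside 17.4% and 12.3% of all tested genes. CDK6, a kinase that drives entry into S phase, had 488, 565 and 477 RPKM in the brain tumors, against 82.0 and 207 in the lung tumors, without overlap. Its log2 fold change of 1.96 (SE 0.43) did not pass the test (limma adjusted p = 0.304). BACH1, a heme-sensing transcription factor, was at 124 ± 56.5 RPKM in the brain tumors (SD, n = 3) and 51.8 ± 20.4 in the lung tumors (SD, n = 2), also short of the threshold (limma adjusted p = 0.470). IGF1R, the receptor of insulin-like growth factors, had 290, 244 and 112 RPKM in the brain tumors, against 112 and 644 in the lung tumors, so the lung tumors differed more from each other than the brain tumors did.

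Of 10 reported IGF2BP client messages 8 were tested, with a median log2 fold change of 0.09, which was -0.21 without lung tumor 1 and 0.47 without lung tumor 2. IGF2, after which the family is named, was at 0.0731, 0.192 and 0 RPKM in the brain tumors, against 0.756 and 0.823 in the lung tumors, under the filter. H19, the noncoding neighbour of IGF2, was at 0.496 to 0.862 RPKM in the brain tumors, against 0.743 and 1.13 in the lung tumors. ACTB was at 4010 ± 250 RPKM in the brain tumors (SD, n = 3) and 5444 ± 574 in the lung tumors (SD, n = 2; limma adjusted p = 0.683). CTNNB1, which encodes beta-catenin, was at 424 ± 41.8 RPKM in the brain tumors (SD, n = 3) and 364 ± 138 in the lung tumors (SD, n = 2; limma adjusted p = 0.778). Neither gene passed the test. CD44, an adhesion receptor for hyaluronan, was at 111, 198 and 72.0 RPKM in the brain tumors, against 164 and 296 in the lung tumors. MKI67, a marker of dividing cells, was at 49.6, 48.3 and 56.2 RPKM in the brain tumors, against 9.90 and 39.9 in the lung tumors (limma adjusted p = 0.473). Of 7 genes of the IGF axis 5 were tested, with a median of 0.80, which was -0.11 without lung tumor 1 and 0.87 without lung tumor 2. INSR, the insulin receptor, was at 48.6 ± 6.60 RPKM in the brain tumors (SD, n = 3) and 33.7 ± 11.0 in the lung tumors (SD, n = 2). IRS2, an adaptor of both receptors, was at 16.7 ± 9.84 RPKM in the brain tumors, against 6.97 ± 2.88 in the lung tumors. IGF2R, which carries IGF2 to lysosomes, was at 464 ± 116 RPKM in the brain tumors, against 361 ± 366 in the lung tumors. None of the 3 passed the test (limma adjusted p = 0.565, 0.491 and 0.624).

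All 13 genes of the m6A machinery were tested, with a median log2 fold change of 0.41, which was 0.22 without lung tumor 1 and 0.68 without lung tumor 2. In 6 of 13 every brain tumor was above both lung tumors and in 0 below, beside the same 17.4% and 12.3% of all tested genes. Every brain tumor was also above in 1 of 13 let-7 processing genes and 1 of 8 IGF2BP clients, each list with 1 gene below. It was so in 1 of 8 other high mobility group genes, 3 of 9 other RNA binders and 1 of 5 IGF axis genes, with 0 below. FTO, a demethylase, had 68.7, 73.6 and 82.1 RPKM in the brain tumors, against 13.7 and 61.1 in the lung tumors (limma adjusted p = 0.474). KIAA1429, a subunit of the methyltransferase complex, had 263, 292 and 254 RPKM in the brain tumors, against 115 and 196 in the lung tumors (limma adjusted p = 0.473). Its partner ZC3H13 had 135, 151 and 99.1 RPKM in the brain tumors, against 43.9 and 114 in the lung tumors. FTO and KIAA1429 did not overlap between the groups, whereas ZC3H13 did. Among 8 other high mobility group genes the median was 0.50, with 0.68 without lung tumor 1 and 0.28 without lung tumor 2. HMGN2, a nucleosome-binding protein, was at 90.8 ± 9.78 RPKM in the brain tumors (SD, n = 3) and 51.9 ± 13.6 in the lung tumors (SD, n = 2). HMGB1, a DNA-bending protein, was at 128 ± 50.9 RPKM in the brain tumors, against 75.5 ± 35.5 in the lung tumors. HMGN1 was at 173 ± 12.7 RPKM in the brain tumors, against 199 ± 53.2 in the lung tumors, and HMGN4 was at 177 ± 15.1 RPKM in the brain tumors, against 121 ± 67.2 in the lung tumors. None of these genes passed the test, with limma adjusted p from 0.473 for HMGN2 to 0.845 for HMGN1. Among 9 other RNA binders the median was 0.68, with 0.09 without lung tumor 1 and 1.21 without lung tumor 2. PUM2, a repressor of messages, had 252, 232 and 212 RPKM in the brain tumors, against 99.6 and 196 in the lung tumors. RBFOX2, a splicing factor, had 17.7, 18.3 and 22.4 RPKM in the brain tumors, against 2.65 and 12.9 in the lung tumors. Neither gene overlapped between the groups or passed the test (limma adjusted p = 0.499 for PUM2 and 0.470 for RBFOX2), while HNRNPA2B1, an abundant nuclear RNA binder, had overlapping groups, with 348, 351 and 293 RPKM in the brain tumors, against 221 and 347 in the lung tumors.

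The second comparison set host tissue of brain tumors against host tissue of lung tumors, in the mouse table, which did not serve to choose the genes. Of 8 mouse genes 4 passed the filter of at least 1 RPKM in 2 or more libraries. Igf2bp2 and Rbms1 fell in the host tissue of the brain tumors, while Hmga1 and Rbms3 did not pass the test. In this contrast 22.4% of 15431 tested mouse genes passed, 14.3% higher and 8.12% lower. The higher calls were 63.8% of all calls, but 50.8% with voom, 52.8% with the length trend removed and 54.0% with quantile normalization. For both genes all 3 brain tumors lay below both lung tumors, as they did for 26.2% of tested mouse genes, with 30.0% above, and 8.20% had a log2 fold change of -2 or less. Bulk tissue cannot tell fewer cells of a type from less RNA per cell.

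Rbms1 (ENSMUSG00000026970.16) had 82.8, 65.5 and 58.3 RPKM in the brain tumors, against 478 and 425 RPKM in the lung tumors. The brain tumors were far lower, and the lung tumors were close to each other. The log2 fold change was -2.71 (SE 0.30, limma adjusted p = 0.00317), and over 16 alternatives it ran from -2.85 to -2.55 with adjusted p from 0.00192 to 0.0354. The reads numbered 148, 212 and 331 in the brain tumors, against 73 and 1481 in the lung tumors.

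Igf2bp2 (ENSMUSG00000033581.16), the family member that persists in adult mouse tissue, had 4.48, 3.30 and 2.66 RPKM in the brain tumors, against 75.7 and 31.9 RPKM in the lung tumors. The log2 fold change was -3.51 (SE 0.49, limma adjusted p = 0.00657), from -4.12 to -2.90 over the alternatives, with adjusted p from 0.00203 to 0.0464. The value in lung tumor 1 rests on 13 reads, with a Poisson 95% interval of 40.3 to 129 RPKM, and the brain values rest on 9, 12 and 17 reads.

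Markers of several host cell types also differed between brain and lung tumors. Of 5 fibroblast markers 4 fell in the host of the brain tumors, and the list summed to 162 to 833 RPKM there and to 16517 and 9550 in lung tumors 1 and 2. Of lung epithelial markers, 3 of 4 for alveolar type 2 cells, 1 of 2 for club cells and 1 of 3 for alveolar type 1 cells fell as well. Between lung tumors 1 and 2 their sums were far apart, at 211 and 18731 RPKM for alveolar type 2 cells. Club markers summed to 716 and 45525 there, and alveolar type 1 markers to 56.6 and 1736. In the same lung tumors Rbms1 was at 478 and 425 RPKM, and Igf2bp2 at 75.7 and 31.9. All 4 neuron, 4 astrocyte and 4 oligodendrocyte markers rose, and 0 of 4 microglia markers were called. Endothelial markers summed to 80.8 to 167 RPKM in the brain tumors and to 92.0 and 1266 in the lung tumors, with 0 of 4 called, and dividing-cell markers summed to 2.79 to 25.0 in the brain tumors, against 65.0 and 62.3 in the lung tumors. None of these markers was at 0 in every library. The part of cell composition in the fall of Rbms1 and Igf2bp2 was not tested.

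Rbms3 had 18.5, 10.9 and 19.5 RPKM in the brain tumors, against 12.6 and 45.5 in the lung tumors, with lung tumor 1 inside the brain range. Its log2 fold change was -0.58 (SE 0.61, limma adjusted p = 0.519), or -1.46 without lung tumor 1 (limma adjusted p = 0.0548) and 0.31 without lung tumor 2 (limma adjusted p = 0.555). Hmga1 had 11.8, 4.09 and 10.8 RPKM in the brain tumors, against 23.1 and 4.94 in the lung tumors, and the lung tumor 1 value rests on 8 reads. Its log2 fold change was -0.38 (SE 0.75, limma adjusted p = 0.740), with 0.63 without lung tumor 1 and -1.39 without lung tumor 2. The median over all tested mouse genes was 0.08 as deposited, 0.22 with median-ratio scaling, -0.11 with quantile normalization, -0.14 with the length trend removed and -0.15 with voom.

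**Figure D4:**
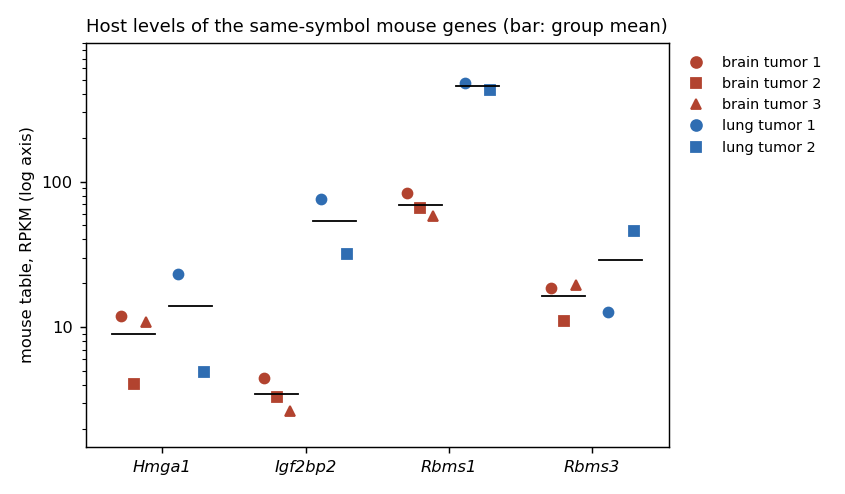
RPKM of the 4 mouse genes that passed the filter (log axis) in each of 3 brain tumors (red) and 2 lung tumors (blue), with a bar at the group mean. Rbms1 and Igf2bp2 of all brain tumors lie below both lung tumors, while Hmga1 and Rbms3 overlap.

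Few reads came from the other 4 mouse genes. Hmga2, Igf2bp1, Igf2bp3 and Lin28b had at most 23 reads in any library. Lin28b, which blocks let-7 maturation, had 0.534, 0.553 and 0.483 RPKM from 8, 15 and 23 reads in the brain tumors, against 0 reads in both lung tumors. At these depths 0 reads allow up to 2.34 RPKM in lung tumor 1, above the brain values, and up to 0.103 RPKM in lung tumor 2, below them. Igf2bp3 had 0 to 3 reads in the brain tumors, against 0 and 4 in the lung tumors, and Igf2bp1 had 0, 0 and 1 reads in the brain tumors, against 0 and 6 in the lung tumors. The 0 reads in lung tumor 1, the shallowest mouse library, allow up to 17.8 RPKM of Igf2bp3 and 36.7 RPKM of Igf2bp1. Hmga2 had 0.194, 0.107 and 0 RPKM in the brain tumors, against 5.68 and 0.449 in the lung tumors. These rest on 2, 2 and 0 reads in the brain tumors, against 5 and 9 in the lung tumors.

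The reads of each gene can also be set side by side between the species. Human reads were 99.7% to 100% of all IGF2BP3 reads in the brain tumors, against 100% and 98.9% in the lung tumors, although the libraries were 22.1% to 96.6% human. For RBMS1 the human share was 69.9%, 60.2% and 36.5% in the brain tumors, against 81.7% and 12.8% in the lung tumors. For RBMS3 it was 61.9%, 66.3% and 17.1% in the brain tumors, against 81.8% and 3.33% in the lung tumors, where 27 human reads stood beside 6 mouse reads in lung tumor 1 and 17 beside 493 in lung tumor 2. The part of misassigned mouse reads in the human values was not tested.

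**Figure D5:**
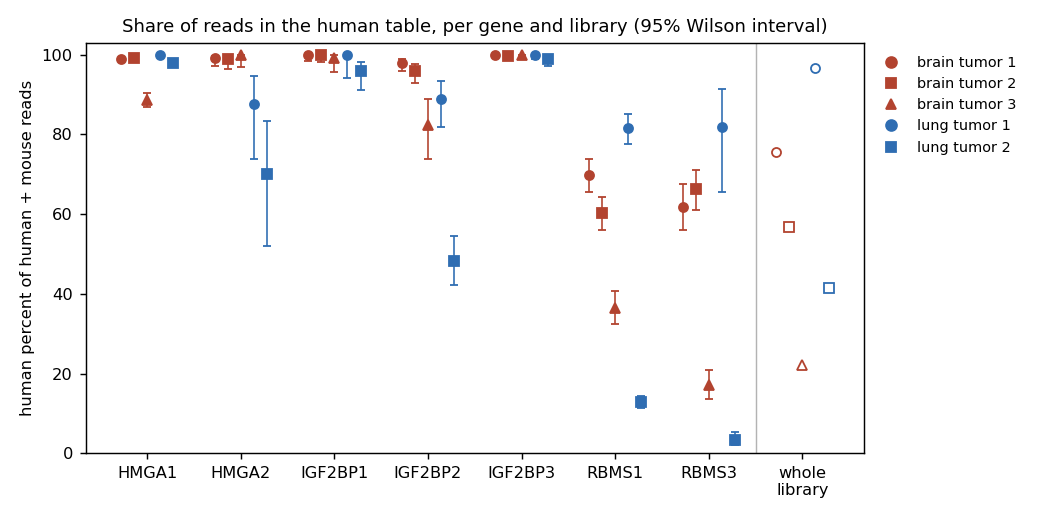
Human percent of human plus mouse reads for each gene in each library, with 95% Wilson intervals, beside that of the whole library (open symbols). IGF2BP3 is at 98.9% or more throughout, while RBMS3 runs from 3.33% to 81.8%.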

How the data were processed

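The authors deposited RPKM per gene, 1 human and 1 mouse table, built on hg38 (GRCh38) and mm10 (GRCm38) per the submitters' processing notes. How reads were aligned, counted and divided between species, whether strand was used, and which gene lengths were taken is not given in the sources used here. Columns were joined to samples by library number, with 0 per-sample columns unmapped. Gene positions are from RefSeq on GRCh38.p14.

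Whole reads were recovered for 21131 human and 20633 mouse genes. Once each library was scaled by 1 factor, the values of a gene were whole multiples of 1 read (largest distance 1.8e-10 and 2.9e-10 reads). At the smallest whole reads the implied length was whole or ended in 0.5 for 81.9% of human and 82.5% of mouse genes, and the reads of the others were raised by the smallest whole factor that made it so (median lengths 921 and 1515.5 bases). Recovered reads summed to 98.0% to 98.7% of the implied totals. For 4393 human and 3995 mouse genes seen in 1 library the reads are not fixed. Intervals and floors (3 reads) cover counting error only.

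Genes with at least 1 RPKM in 2 or more libraries were fitted on log2(RPKM + 1) with limma 3.58.1 in R 4.3.3 (brain minus lung, eBayes with trend, Benjamini-Hochberg over all tested genes of a table, threshold 0.05), 14423 human and 15431 mouse genes. Fold changes on this scale understate those of low genes. An exact rank-sum test of 3 against 2 libraries cannot go below a two-sided p = 0.2. The members, lists and tests were chosen with earlier results of these data known. In the lists the 2 genes with the lowest p and the 2 with the highest mean were named, with IGF2, H19 and LIN28A picked after their values were seen. The result of 1 gene that this rule names is not reported here. The fits and the read recovery were checked on simulated data. The 16 alternatives were 2 pseudocounts, 2 filters, 2 scalings, a length trend removed, voom, eBayes without a trend, the replicate number as a block, the human share as covariate, and leaving out each library.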

Additional observations from a re-analysis of the deposited data

Results flagged for a closer look

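In the human table HMGA2 of all brain tumors lay above both lung tumors (log2 fold change 2.42), whereas mouse Hmga2 was lower in every brain tumor (-1.50 with no filter, on at most 9 reads a library). IGF2BP2 was likewise higher in the human table (0.86) and Igf2bp2 lower in the mouse table (-3.51). Each pair drew attention because all libraries of one species moved opposite to those of the other. The separation was in part within counting error. Poisson 95% intervals of mouse Hmga2 overlapped, with 0.0235 to 0.702 RPKM in brain tumor 1 and 0.205 to 0.851 in lung tumor 2. Those of human IGF2BP2 overlapped between brain tumor 3 (49.8 to 78.2) and lung tumor 2 (49.5 to 71.8). The difference between the species was not tested, since the human genes were chosen on this contrast.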

How the results depend on the processing

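The human call count of 1 became 0 with voom or with the human share as covariate, 114 with the replicate number as a block, and 0 to 1905 without single libraries (1905 without lung tumor 2). Where 1 lung tumor remains, its spread is taken from the brain tumors. The cause of these shifts was not tested. The mouse count of 3457 became 2295 with no filter, 1484 with the replicate block and 1195 (without brain tumor 2) to 8275 (without lung tumor 2) without single libraries. The median log2 fold change of the 7 human genes, 0.95, was 0.38 to 1.38 without single libraries and 0.79 to 1.01 otherwise. Rbms1 and Igf2bp2 kept their direction and call in all 16 alternatives. Without single libraries Hmga1 ran from -1.39 to 0.63 and Rbms3 from -1.46 to 0.31, and Hmga1 was 0.33 with voom. The labels give no pairing: same-numbered libraries correlated at -0.0821 and 0.0591 in human and 0.0347 and 0.0502 in mouse genes, and the block rests on 2 pairs. Depth limits mouse values of lung tumor 1, where 3 reads are worth 8.66 RPKM of Hmga1, 17.5 of Igf2bp2 and 6.31 of Rbms3.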

Other observations

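The order of the human genes depends on the lengths behind the RPKM. In RPM, which is not divided by length, the brain tumors averaged 488 for HMGA1, 137 for IGF2BP3, 54.9 for RBMS1, 40.4 for IGF2BP2, 36.9 for IGF2BP1, 36.1 for HMGA2 and 26.9 for RBMS3. By that measure RBMS1 stood above IGF2BP2, the reverse of the RPKM order. In the lung tumors the averages were 555 for HMGA1, 71.8 for IGF2BP3, 52.7 for RBMS1, 22.9 for IGF2BP2, 22.5 for IGF2BP1, 5.35 for HMGA2 and 4.23 for RBMS3.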
